A study of Mus musculus with 8 samples.

Results

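The genes described here are 10 regulators of the G1 phase of the cell cycle and of entry into S phase: the D-type cyclins Ccnd1, Ccnd2 and Ccnd3, the E-type cyclins Ccne1 and Ccne2, the kinases Cdk2, Cdk4 and Cdk6, and the inhibitors Cdkn1b and Cdkn1c. They were taken as all probes of the array whose RefSeq accession belongs to one of these symbols, which gave 14 probes for 10 genes, of 55681 probes and 20145 named genes in all. The study injected pregnant CD-1 mice, an outbred stock, intraperitoneally on gestational day 9 and collected whole embryos 3 h later. The 4 hydroxyurea samples came from dams given 400 mg/kg of hydroxyurea, an inhibitor of ribonucleotide reductase, and the 4 saline samples from dams given saline. Expression was read from Cy3-labelled total RNA on Agilent mouse arrays with 1 colour, which lay on 2 slides with 2 arrays of each group. Whether the RNAs came from separate litters is not given in the labels, so p-values measure the spread between these samples.

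Passage through G1 depends on cyclins that activate cyclin-dependent kinases. D-type cyclins with CDK4 or CDK6, and then E-type cyclins with CDK2, phosphorylate the retinoblastoma protein and release E2F transcription factors, which switch on the genes of DNA replication. The products of Cdkn1b (p27) and Cdkn1c (p57) bind these complexes and hold them back. In the early embryo most cells divide fast, and G1 is short.

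Between 48.5% (hydroxyurea 3) and 62.2% (saline 1) of spots were well above background, and no spot was saturated (0 on each array). All 13 markers of embryonic tissues, among them Hbb-bh1, Myl7, Sox2 and Kdr, were well above background on all 8 arrays and 0 passed the test. The neural tube gene Sox2 stood at -0.51 (adjusted p = 0.076) and Pax6, another, at -0.70 (adjusted p = 0.109). The endothelial gene Kdr stood at -1.16 by its brighter probe (adjusted p = 0.087) and at -0.38 by another. By the probes tested, every hydroxyurea array lay below every saline array for Sox2, Pax6 and Kdr. The groups thus did not overlap for 3 of the 13, against 16% of all named genes. The endothelial gene Cdh5 stood at -0.76 (adjusted p = 0.107). The summed level of the 13 lay between 1015 and 1753 on the hydroxyurea arrays and between 1115 and 1466 on the saline arrays, in multiples of the array's 75th percentile. The sum adds linear values, so it rests mostly on Hbb-bh1, Hba-x and Actc1 (hydroxyurea means 9.41, 8.17 and 7.43 on the log2 scale). It says little about the other markers. Of 8 markers of yolk sac endoderm, decidua and trophoblast, 4 were well above background on all arrays and Prl3c1 and Tpbpa on 0, with summed levels of 52.4 to 83.8 on hydroxyurea arrays and 17.6 to 145 on saline arrays. The decidual gene Prl8a2 was highest on hydroxyurea 3 (6.03 on the log2 scale) and hydroxyurea 2 (2.40), against -4.45 and -6.84 on the other hydroxyurea arrays and -7.51 to -2.03 on saline arrays. The trophoblast gene Prl3d1 had the same 2 arrays highest, at 2.40 on hydroxyurea 2 and 1.43 on hydroxyurea 3. Gcm1, another trophoblast gene, did not: it stood at 4.56, 3.92, 2.60 and 5.14 on the hydroxyurea arrays against 2.64, 0.86, 2.46 and 5.03 on the saline arrays. The yolk sac genes Afp (-0.53), Ttr (-1.04) and Apoa1 (-1.11) averaged lower in hydroxyurea without passing the test. Each was highest on saline 2, at 6.79, 4.78 and 2.27. The part of these tissues in the results below was not tested. Values without hydroxyurea 2 and hydroxyurea 3 are given with the genes that passed, a choice that follows Prl8a2 and Prl3d1 and not the yolk sac genes. In whole embryos, fewer cells of a type and less RNA per cell cannot be told apart.

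Values below are log2 of the array's processed signal minus the 75th percentile of that array, so 0 is that percentile. A difference is hydroxyurea minus saline on this log2 scale. A gene passed the test when its adjusted p in a limma fit across all features was under 0.05. Levels of different probes are not compared, since each probe binds with its own strength.

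The gene of cyclin E1 rose in hydroxyurea embryos. Ccne1 (NM_007633) is the activating subunit of CDK2 at the entry into S phase, and 1.88-fold more of it was measured after hydroxyurea. By the brighter of its 2 probes its level was 6.20, 5.57, 5.97 and 5.82 on the 4 hydroxyurea arrays, against 4.91, 4.98, 5.15 and 4.88 on the 4 saline arrays. All hydroxyurea arrays thus lay above all saline arrays, by at least 0.42, and hydroxyurea 2 was the lowest of them. The means were 5.89 ± 0.27 in hydroxyurea and 4.98 ± 0.12 in saline (SD, n = 4 each), a difference of 0.91 ± 0.17 (SE, adjusted p = 0.0155, 95% interval 0.53 to 1.29). The difference was 0.94 on slide 1 and 0.88 on slide 2. Without hydroxyurea 2 and hydroxyurea 3 it was 1.03 (adjusted p = 0.013), in a setting where 3787 features were called against 1429 with all arrays. The unadjusted limma p was 0.00062 there, against 0.00036 with all arrays. The difference passed after leaving out each single array in turn (adjusted p between 0.0065 and 0.0496).

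The other Ccne1 probe, dimmer but well above background on all 8 arrays, gave 0.92, 1.31, 1.35 and 0.96 in hydroxyurea against 0.70, -0.31, 0.68 and -0.085 in saline. The groups did not overlap here either. Its difference was 0.88 ± 0.26 (SE, n = 4 per group), close to that of the brighter probe, but the saline arrays spread more (SD 0.52) and it did not pass among all probes (adjusted p = 0.076).

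For the genes with a change past the test, the RefSeq promoter windows of assembly GRCm38.p6 are shown where they are described, from 250 bases before to 50 bases after the gene's start, in the direction of transcription. Capitals mark matches on either strand to 3 motifs. An E2F word was any of TTTCCCGC, TTTCGCGC, TTTGCCGC and TTTGGCGC. The second motif, the GC box, was read as GGGCGG. Last came the pentamer after which the CCAAT box is named. Such windows were at hand for 6 of the 10 genes. Of 32851 windows of 300 bases over all genes, 35.7% held a GC box, 37.4% a CCAAT box and 2.26% an E2F word. The Ccne1 window, at chr7:38107441-38107740 on the minus strand, held 4 GC boxes, 0 CCAAT boxes and 0 of the E2F words, and its GC content was 76%, above 96.9% of windows.
Ccne1: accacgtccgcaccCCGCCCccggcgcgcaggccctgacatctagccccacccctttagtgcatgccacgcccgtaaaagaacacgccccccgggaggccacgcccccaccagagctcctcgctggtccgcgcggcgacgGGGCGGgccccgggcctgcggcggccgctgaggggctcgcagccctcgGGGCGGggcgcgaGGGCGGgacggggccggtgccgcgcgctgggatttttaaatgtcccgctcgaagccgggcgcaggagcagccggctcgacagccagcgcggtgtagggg

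The probe of Ccne2 (NM_001037134), the gene of cyclin E2 and the other partner of CDK2 in S-phase entry, was near the detection limit. It was well above background on 3 of 4 hydroxyurea arrays and 0 of 4 saline arrays, so it did not reach the 4 arrays required for the test. The values were -3.71, -6.12, -3.85 and -4.87 in hydroxyurea, against -6.40, -5.95, -6.78 and -6.16 in saline. Here 3 hydroxyurea arrays lay above every saline array, and hydroxyurea 2 lay among them. The measured means were -4.64 in hydroxyurea and -6.32 in saline, neither of them wholly above background, so no fold is given. Tested without the filter on dim probes it did not pass (adjusted p = 0.161).

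None of the D-type cyclin genes, whose products link growth signals to CDK4 and CDK6, passed the test. Ccnd1 (NM_007631), the gene of cyclin D1, had levels of 4.89, 4.53, 4.95 and 5.04 in hydroxyurea and of 4.48, 4.47, 4.60 and 4.51 in saline. Only hydroxyurea 2 fell within the saline range, and the 3 other hydroxyurea arrays lay above it. The difference was 0.34 ± 0.15 (SE, n = 4 per group, adjusted p = 0.206, 95% interval -0.0039 to 0.68). Without hydroxyurea 2 it was 0.44 and passed (adjusted p = 0.0425), in a setting where 3739 features were called against 1429 with all arrays. Without both hydroxyurea 2 and hydroxyurea 3 it was 0.45 (adjusted p = 0.079).

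Ccnd2 (NM_009829), the gene of cyclin D2, stood at 5.54, 5.50, 5.75 and 5.53 in hydroxyurea and at 5.46, 4.84, 5.72 and 4.93 in saline. The hydroxyurea arrays lay close together, while 2 saline arrays were level with them and 2 were lower. Its difference of 0.34 ± 0.21 did not pass (adjusted p = 0.349, 95% interval -0.13 to 0.82).

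The gene of cyclin D3, Ccnd3, was measured by 2 probes on different RefSeq transcripts, and they gave opposite signs. The brighter (NM_001081636) had 6.49, 6.02, 6.82 and 6.58 in hydroxyurea against 6.18, 6.26, 6.44 and 6.24 in saline, a difference of 0.20 ± 0.19 (adjusted p = 0.552, 95% interval -0.22 to 0.62). The other (NM_007632) had 4.53, 4.57, 4.88 and 4.79 against 4.76, 4.67, 5.11 and 4.75, a difference of -0.13 ± 0.16 (adjusted p = 0.67 among all probes). The groups overlapped for both.

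**Figure D1:**
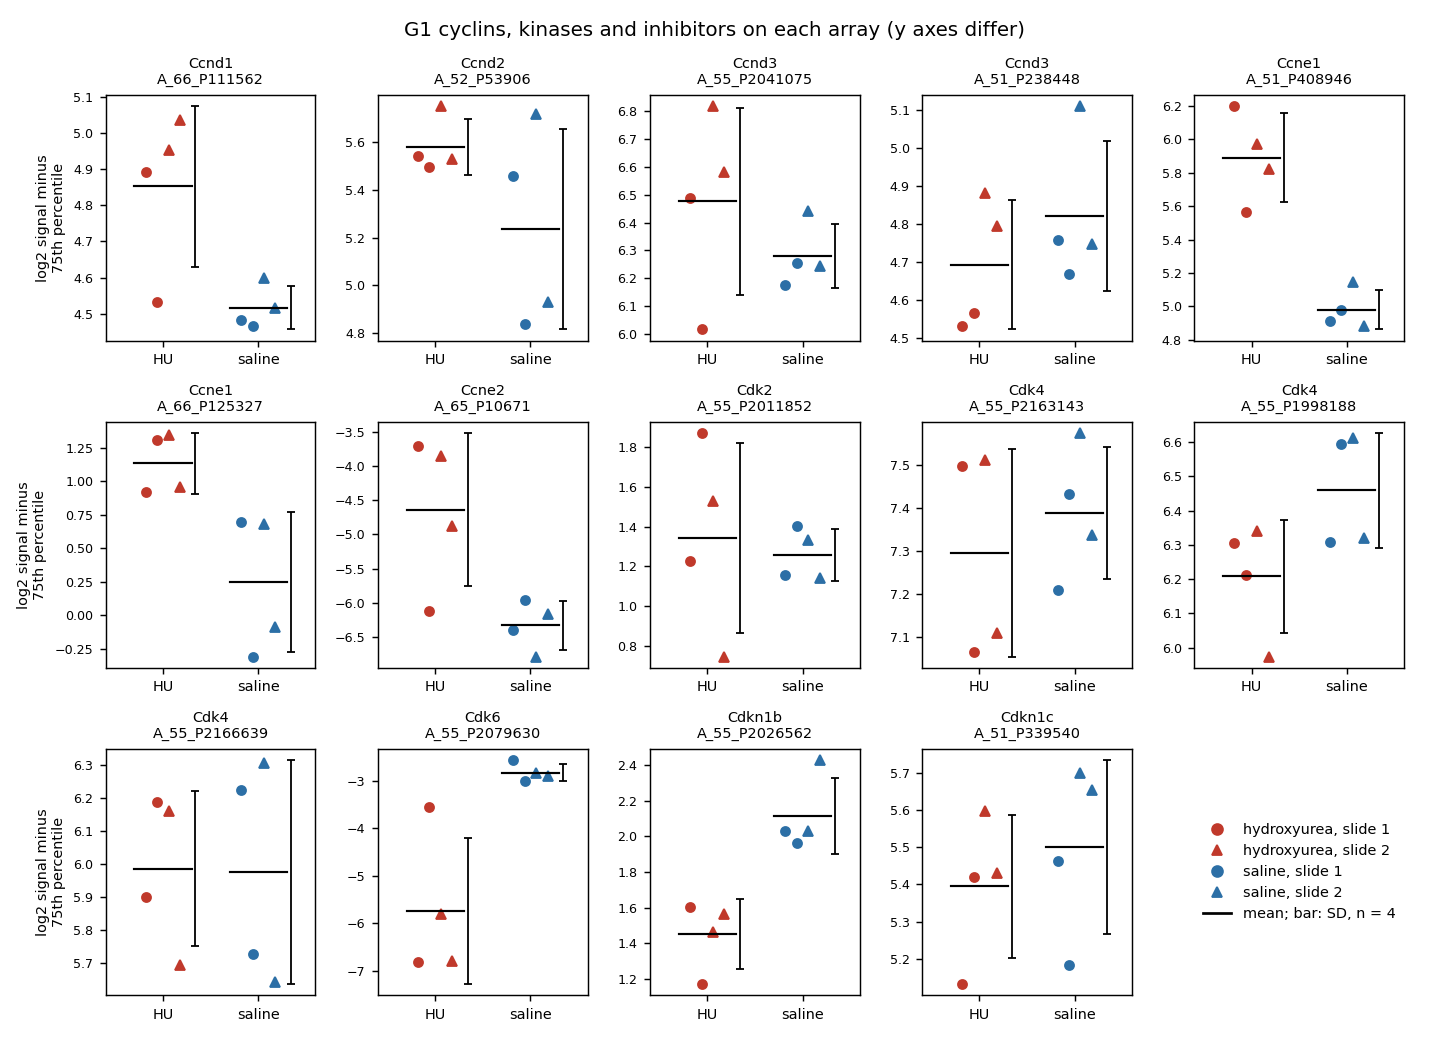
Level of each of the 14 probes on each array, as log2 signal minus the array's 75th percentile, with hydroxyurea (HU) left and saline right, circles for slide 1 and triangles for slide 2, lines for means and bars for the SD (n = 4). Both Ccne1 probes have every hydroxyurea array above every saline array, Cdk6 and Cdkn1b have every hydroxyurea array below, and the y axis differs between panels.

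Among the kinase genes the test called Cdk6 alone. Cdk6 (NM_009873), a partner of the D-type cyclins, is measured by a single dim probe, with levels of -6.81, -3.54, -5.81 and -6.79 in hydroxyurea against -2.56, -3.01, -2.83 and -2.88 in saline. All hydroxyurea arrays lay below all saline arrays, with hydroxyurea 2 by far the nearest to them. The probe was well above background on 1 hydroxyurea array, hydroxyurea 2, and on all 4 saline arrays. The saline arrays alone thus met the filter on dim probes, so the gene entered the test through the group in which it was high. The fitted difference was -2.92 ± 0.63 (SE, n = 4 per group, adjusted p = 0.0296). Its size rests on signals of 3.10 to 4.46 units on the other hydroxyurea arrays, which were not well above background, so it is not a measured fold. With every value below an array's lowest detected signal raised to that signal, the difference was -1.86 (adjusted p = 0.018), and with normexp background correction it was -0.55 and did not pass (adjusted p = 0.09).

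The Cdk6 call was lost on leaving out any single array other than hydroxyurea 2 (adjusted p between 0.059 and 0.087). Hydroxyurea 2 was the only hydroxyurea array with the probe well above background. Without it the difference was -3.65 (adjusted p = 0.00068), and without both hydroxyurea 2 and hydroxyurea 3 it was -3.98 (adjusted p = 0.0002). These 2 fits rest on hydroxyurea signals that were not well above background, so they cannot show that the call holds. Within slides the difference was -2.39 on slide 1 and -3.44 on slide 2. The Cdk6 promoter window, at chr5:3343643-3343942 on the plus strand, held 0 GC boxes, 0 CCAAT boxes and 0 E2F words.
Cdk6: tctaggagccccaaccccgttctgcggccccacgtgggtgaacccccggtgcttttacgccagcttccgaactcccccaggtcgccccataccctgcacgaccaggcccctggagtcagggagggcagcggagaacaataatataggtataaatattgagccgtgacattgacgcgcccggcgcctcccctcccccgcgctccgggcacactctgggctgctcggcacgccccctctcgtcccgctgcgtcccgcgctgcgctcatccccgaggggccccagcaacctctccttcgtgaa

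Cdk4 (NM_009870), the kinase gene that shares the D-type cyclins with Cdk6, was bright on all 3 of its probes and did not differ beyond the spread of the arrays. The probe with the highest signal had 7.50, 7.07, 7.51 and 7.11 in hydroxyurea against 7.21, 7.43, 7.57 and 7.34 in saline. The ranges overlapped, and the difference was -0.092 ± 0.17 (adjusted p = 0.775, 95% interval -0.47 to 0.28). The other probes gave -0.25 (adjusted p = 0.354 among all probes) and 0.01 (adjusted p = 0.982). With median centring the difference of the brightest probe was 0.026, above 0.

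Cdk2 (NM_183417), the kinase of the E-type cyclins, had 1.23, 1.87, 1.53 and 0.75 in hydroxyurea against 1.16, 1.40, 1.33 and 1.14 in saline. The hydroxyurea arrays spread on both sides of the saline range (SD 0.48 against 0.13). The difference of 0.085 ± 0.23 did not pass (adjusted p = 0.856, 95% interval -0.44 to 0.61), and it was -0.09 without hydroxyurea 2.

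Of the inhibitor genes, Cdkn1b fell and Cdkn1c did not pass. Cdkn1b (NM_009875), the gene of p27, which blocks cyclin E with CDK2, had 1.61, 1.17, 1.47 and 1.57 in hydroxyurea against 2.03, 1.96, 2.03 and 2.43 in saline. All hydroxyurea arrays lay below all saline arrays, by at least 0.36, with hydroxyurea 2 the lowest and saline 4 the highest. The means were 1.45 ± 0.20 in hydroxyurea and 2.11 ± 0.21 in saline (SD, n = 4 each), a level 1.58-fold lower in hydroxyurea. The difference of -0.66 ± 0.17 (SE) passed narrowly (adjusted p = 0.0495, 95% interval -1.04 to -0.29). It was -0.61 on slide 1 and -0.71 on slide 2, and with slide as a block the call was lost (adjusted p = 0.063), as with row on the slide as a block (adjusted p = 0.066). The call was lost on leaving out any single array other than hydroxyurea 2 (adjusted p between 0.087 and 0.112), and without both hydroxyurea 2 and hydroxyurea 3 (-0.53, adjusted p = 0.093). The Cdkn1b window, at chr6:134920151-134920450 on the plus strand, held 1 GC box, 3 CCAAT boxes and 0 E2F words.
Cdkn1b: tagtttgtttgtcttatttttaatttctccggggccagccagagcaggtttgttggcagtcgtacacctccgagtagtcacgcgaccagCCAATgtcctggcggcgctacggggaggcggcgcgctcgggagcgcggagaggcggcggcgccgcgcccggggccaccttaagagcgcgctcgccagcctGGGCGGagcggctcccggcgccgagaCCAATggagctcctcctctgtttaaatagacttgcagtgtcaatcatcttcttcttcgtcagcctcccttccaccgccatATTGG

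Cdkn1c (NM_009876), the imprinted gene of p57, had 5.13, 5.42, 5.60 and 5.43 in hydroxyurea against 5.46, 5.18, 5.70 and 5.65 in saline. The groups overlapped, and the difference was -0.10 ± 0.17 (SE, n = 4 per group, adjusted p = 0.749, 95% interval -0.49 to 0.28). With median centring it was 0.013, above 0.

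Of the 9 member genes that passed the filter on dim probes, 1 was called higher and 2 lower, and 6 did not pass. Of the 2 called lower, Cdk6 had met the filter by its saline arrays alone. Over the 14631 named genes tested, 5.67% were called, 3.64% as higher and 2.03% as lower, and over all 23121 features, unnamed ones included, 6.18% were called, 2.78% as higher and 3.4% as lower. In the fit over all kept probes, used for a gene's other probes, 6.83% were called. The groups of arrays did not overlap for 3 of the 9, against 16% of all named genes. The median difference of the 9 was 0.085, beside 0.10 over all named genes and 0.04 over all features. In a limma test of whether the difference itself varied between the slides, none of the 9 was called (lowest unadjusted p = 0.412), and over all features 0 were called and 218 had an unadjusted p under 0.05.

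**Figure D2:**
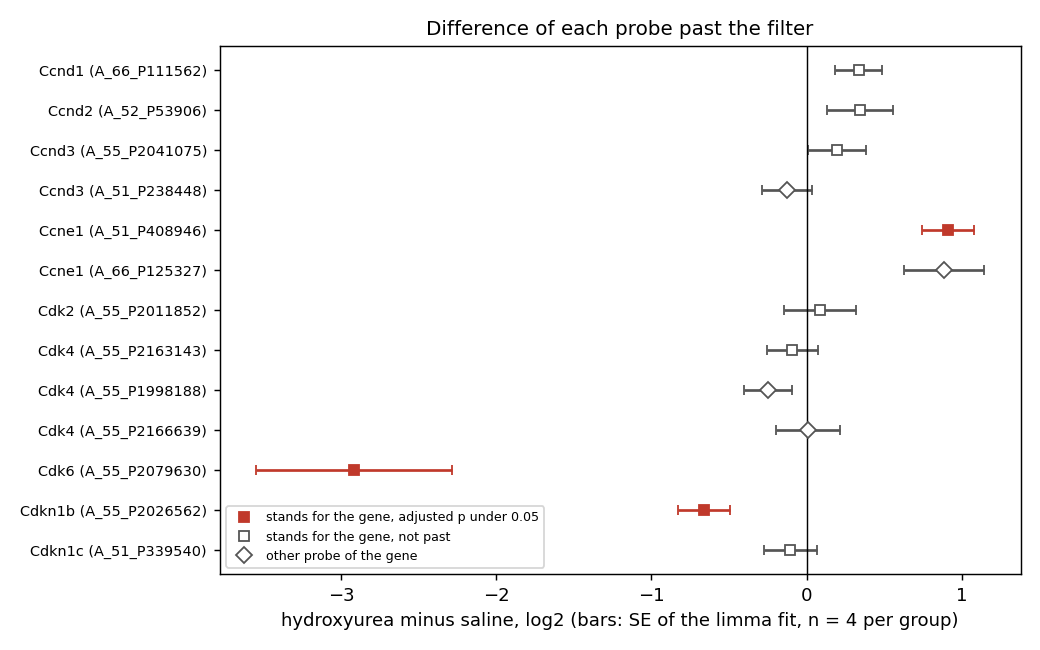
Hydroxyurea minus saline on the log2 scale for each of the 13 probes past the filter, with bars for the SE of the limma fit (n = 4 per group). Filled squares mark the 3 genes past an adjusted p of 0.05, open squares genes that were not, and diamonds other probes of a gene: the Ccne1 probes lie close together at 0.91 and 0.88, and Cdk6 stands at -2.92 with the widest error.

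Whether close relatives changed unequally was tested with the log2 ratio of the pair within each array, for 6 pairs, by an exact two-sided permutation test over the 70 splits of the arrays. The smallest p such a test can give is 0.0286, and after adjustment over 6 pairs a pair could pass at 0.05 only if at least 4 pairs reached it. No pair passed. The ratio of Cdk4 to Cdk6 was higher in hydroxyurea on every array (10.61 to 14.31 in hydroxyurea, 9.77 to 10.44 in saline), a difference of 2.83 (exact p = 0.0286, adjusted p = 0.171, n = 4 per group). The Cdk6 signal in it was not well above background on 3 of 4 hydroxyurea arrays, and with normexp the difference was 0.53. The ratio of Cdkn1b to Cdkn1c differed by -0.56 (exact p = 0.0571, adjusted p = 0.171), with hydroxyurea 1 inside the saline range. The ratio of Ccnd1 to Ccnd2 differed by -0.0065 (exact p = 1), that of Ccnd1 to Ccnd3 by 0.14 (exact p = 0.171) and that of Ccnd2 to Ccnd3 by 0.15 (exact p = 0.486). The ratio of Ccne1 to Ccne2 differed by -0.78 (exact p = 0.2), where the saline value of Ccne2 is not above background.

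**Figure D3:**
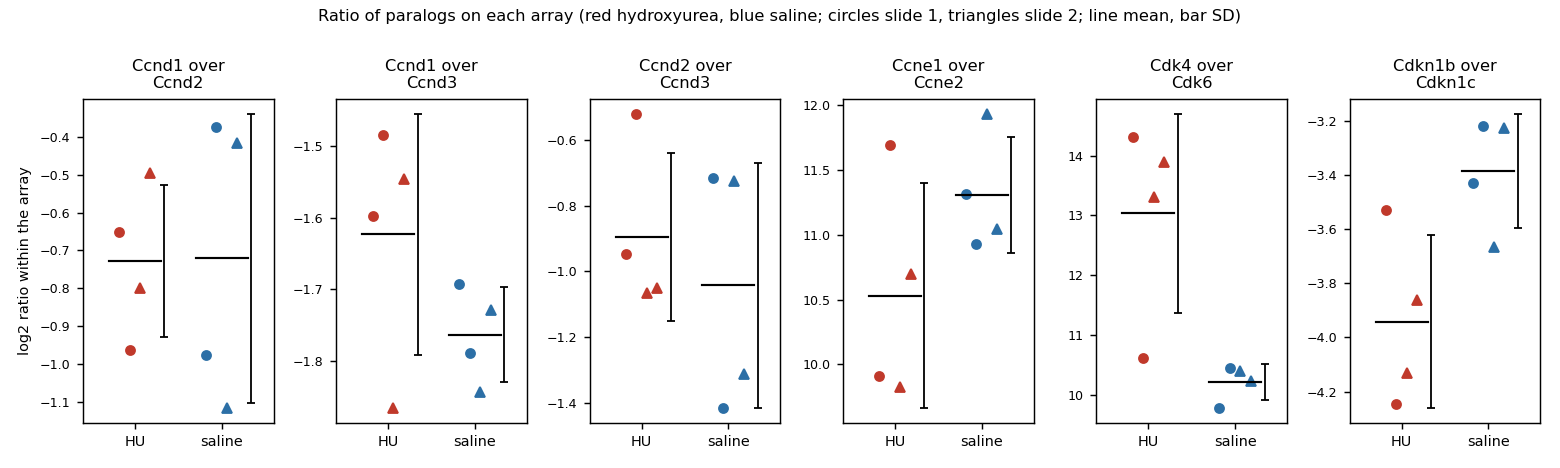
Log2 ratio of 6 pairs of related genes within each array, hydroxyurea (HU, red) left and saline (blue) right, with lines for means and bars for the SD (n = 4). Only Cdk4 over Cdk6 separates the groups, from 10.61 upward in hydroxyurea and up to 10.44 in saline.

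The same fit was read for 38 other genes that act with these regulators in G1, of which 37 were on the array and measured. Of these 5 were called higher, 0 lower and 32 did not pass, and their median difference was 0.23, beside 3.64% of named genes called higher, 2.03% called lower and a median of 0.10. The largest rise was that of Cdkn1a, the gene of the inhibitor p21, at 3.02 ± 0.24 (SE, adjusted p = 0.00027), an 8.11-fold change in the opposite direction to the p27 gene Cdkn1b. Its levels were 2.63, 2.79, 2.05 and 3.08 in hydroxyurea against -0.75, -0.18, -0.48 and -0.11 in saline, far apart on every array. Cdkn2b, the gene of the CDK4 and CDK6 inhibitor p15, was called higher, at 1.36 (adjusted p = 0.013). It was well above background on 4 of 4 hydroxyurea arrays but 1 of 4 saline arrays, so this is not a measured fold. It thus met the filter on dim probes through the group in which it was high. With normexp it stood at 0.31 and did not pass (adjusted p = 0.402). The 3 other inhibitors of the list did not pass.

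Among 13 genes of the retinoblastoma and E2F families, 2 rose and 0 fell. Rb1, the gene of the retinoblastoma protein that the cyclin D and cyclin E kinases phosphorylate, had 2.44, 1.93, 2.20 and 2.49 in hydroxyurea against 0.95, 0.98, 0.85 and 1.19 in saline. These groups were well apart, and the difference of 1.27 ± 0.17 (SE, adjusted p = 0.0039) passed after leaving out each single array. E2f7, the gene of an E2F that represses transcription, rose by 0.98 (adjusted p = 0.018), but its other probe gave -0.62 and the mean of both 0.18. With single arrays left out it passed in 4 of 8 fits. The activator gene E2f1 stood at 0.51 (adjusted p = 0.112), the atypical repressor gene E2f8 at 0.61 (adjusted p = 0.084), E2f6 at 0.51 (adjusted p = 0.128), and E2f4 at -0.52 (adjusted p = 0.066).

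In the group of genes for turnover of cyclins and inhibitors, 1 of 10 measured members rose. It was Fbxo4 (0.84, adjusted p = 0.024), which encodes an F-box protein linked to cyclin D1 degradation, and the call was lost on leaving out any array but hydroxyurea 2 and saline 3. Ambra1, whose product directs degradation of D-type cyclins, stood at -0.43 (adjusted p = 0.121), and Skp1, of the SCF ubiquitin ligase, at 0.36 (adjusted p = 0.22). Among 5 genes of CDK activation 0 passed with limma, and 2 of them, Cdk7 and Ccna2, had an unadjusted p under 0.05. They included Ccna2, the cyclin A2 gene of S phase, at -0.39 (adjusted p = 0.144), and the genes of the CDK-activating kinase Cdk7 at 0.57 (adjusted p = 0.091) and Ccnh at 0.46 (adjusted p = 0.24). Another Cdk7 probe gave -1.67. Of the 4 upstream transcription factors none passed, with Mybl2 at 0.47 (adjusted p = 0.143). Without hydroxyurea 2 and 3 the genes called stood at 3.24 (Cdkn1a), 1.40 (Cdkn2b), 1.47 (Rb1), 1.15 (E2f7) and 0.92 (Fbxo4), all past the test. In that setting 3787 features were called, against 1429 with all arrays. Cdkn2b had met the filter through the hydroxyurea arrays and was well above background on 1 of 4 saline arrays. Its result there therefore cannot show that the call holds.

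Of 28 E2F target genes of the G1/S transition, the group to which Ccne1 belongs by function, 3 rose, 0 fell and 25 did not pass. Their median difference was 0.31 and 25 of the 28 had a value above 0, beside a median of 0.10 and 61.5% above 0 over all named genes, of which 3.64% were called higher. The 3 were Slbp, of histone mRNA processing (1.08, adjusted p = 0.022), the thymidine kinase gene Tk1 (0.69, adjusted p = 0.022) and Orc6, of the origin recognition complex (0.81, adjusted p = 0.043). Orc6 did not pass once slide (adjusted p = 0.066) or row (adjusted p = 0.056) entered the fit as a block. Without hydroxyurea 2 and 3 the values were 1.15 for Slbp, 0.73 for Tk1 and 1.03 for Orc6, all past the test, in the setting with 3787 features called. Leaving out single arrays gave 0 to 9 called target genes. Without hydroxyurea 1, hydroxyurea 4 or saline 2 the count was 0, without hydroxyurea 3, saline 1, saline 3 or saline 4 it was 1, and without hydroxyurea 2 it was 9.

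**Figure D4:**
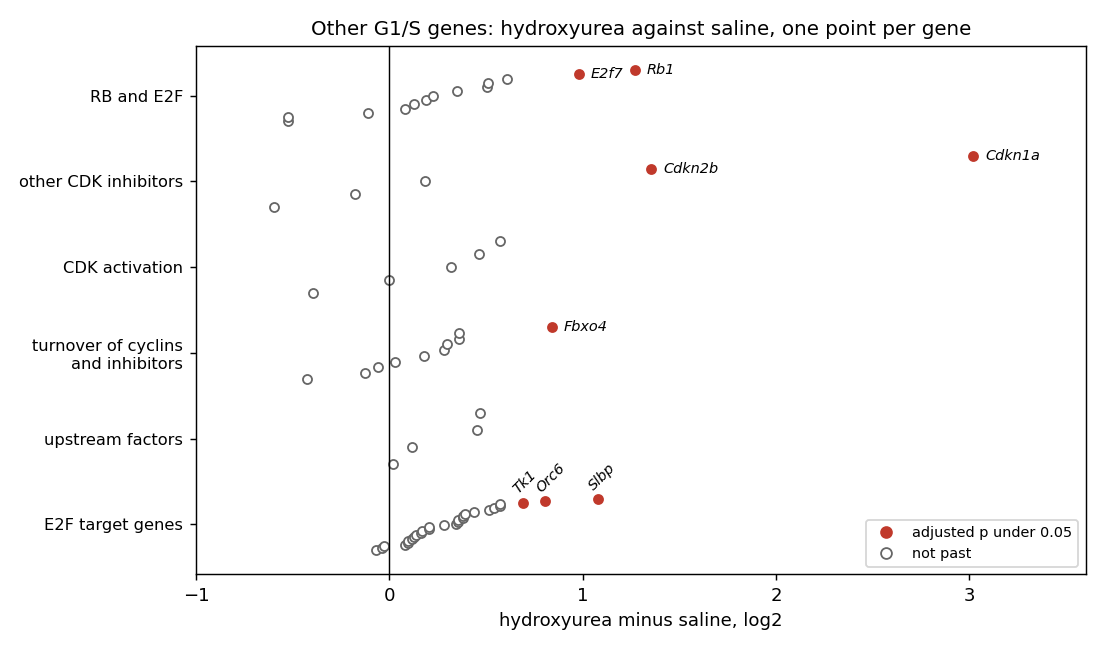
Hydroxyurea minus saline on the log2 scale for 37 other G1/S genes in 5 groups by role and for 28 E2F target genes, 1 point per gene. Filled and named points are the 8 genes with an adjusted p under 0.05, all above 0, with Cdkn1a farthest at 3.02.

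The named genes whose levels followed each called member most closely over the 8 arrays were found by Pearson correlation, as a description in which the difference between the groups carries most of the likeness. For Ccne1 these were the kinase gene Pask (r = 0.995), the stress-induced gene Gadd45a (0.993) and Chaf1b, a histone chaperone gene of replication (0.992). Cdkn1b was most like Cdc42ep4 (0.983), the spindle gene Aspm (0.976) and the Polycomb gene Cbx2 (0.956). Cdk6 was most like Lgr4 (0.997), Tnfrsf21 (0.993) and Ap2a2 (0.992), with differences of -3.59, -1.43 and -1.88. Cdk6 was well above background on only 1 of 4 hydroxyurea arrays, so its correlations rest in part on undetected signals. Whether Lgr4, Tnfrsf21 and Ap2a2 were themselves near the detection limit was not examined. Of 14630 genes, 870 correlated with Ccne1 above 0.9, 272 with Cdk6 and 45 with Cdkn1b.

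The authors' deposited table of selected probes lists 1346 probes, 2.42% of those on the array, and holds 2 probes of these genes. In the authors' deposited table, Ccne1 averaged 0.53 in hydroxyurea and -0.37 in saline, and Cdkn1b averaged -0.34 in hydroxyurea and 0.33 in saline, on a log2 scale centred per probe. These are the brighter Ccne1 probe and the Cdkn1b probe described above. The authors' deposited table also holds Cdkn1a, Cdkn2b, Rb1, E2f7, Fbxo4, Cdk7 and Mybl2 of the other G1 genes, and Slbp and Tk1 of the E2F targets.

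**Figure D5:**
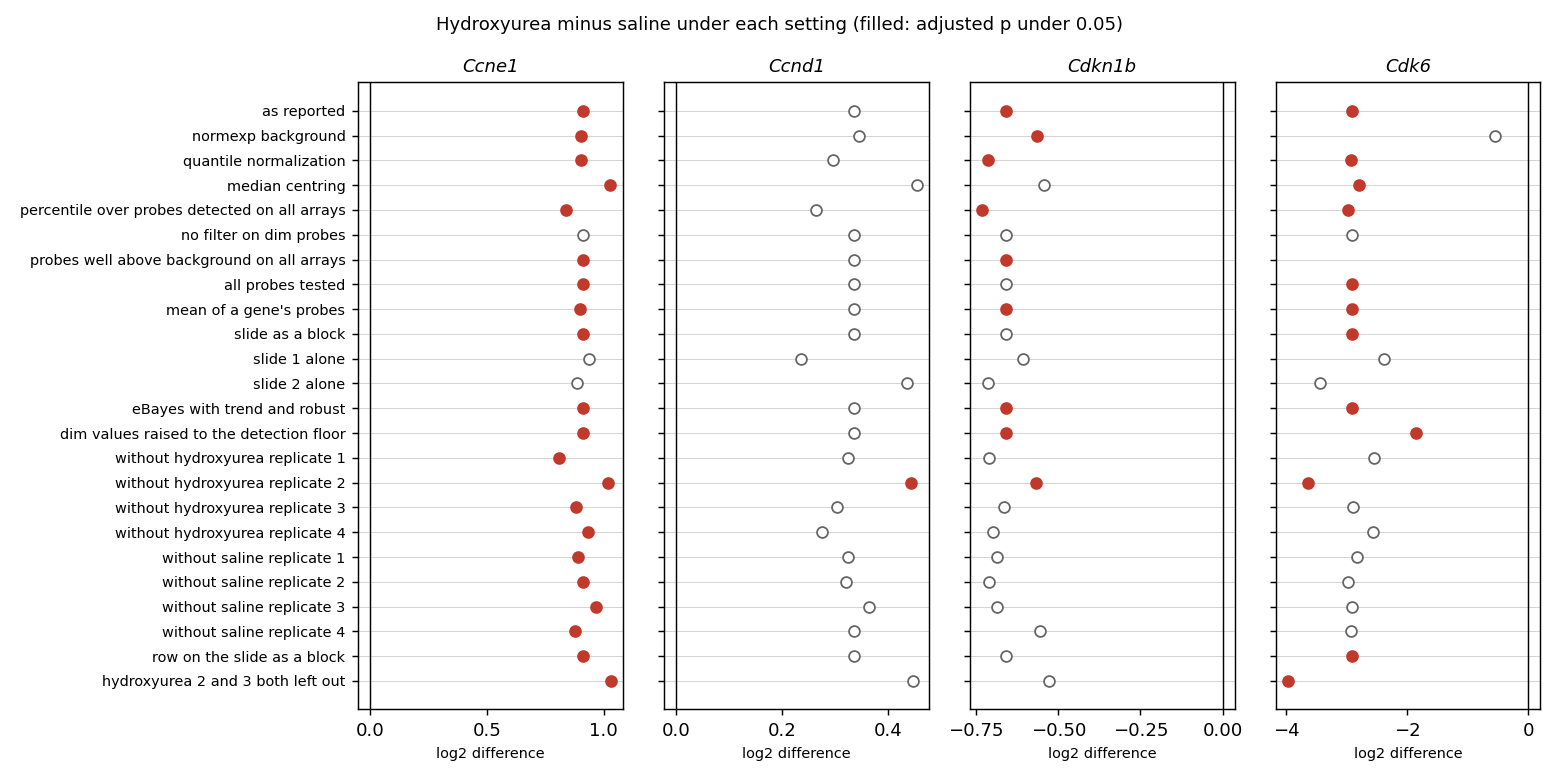
Log2 difference of Ccne1, Ccnd1, Cdkn1b and Cdk6 under each processing setting and with arrays left out, 1 row per setting, filled where the adjusted p was under 0.05. Ccne1 stays between 0.81 and 1.03 and is filled in most rows, while Cdkn1b and Cdk6 keep their direction and lose the call in many.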

How the data were processed

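Total RNA of 8 whole-embryo samples was measured on 1-colour Agilent arrays, and the number of arrays limits the precision. Per the file headers, the authors' intensity files come from Agilent Feature Extraction 11.5.1.1, whose processed signal is already background-subtracted. The deposited table of log2 values, which the authors limited to 1346 probes, has a median of 0 for each probe, as its values show.

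Outlier spots were dropped and a probe's spots averaged. The log2 of the processed signal minus the 75th percentile of the array was fitted by lmFit and eBayes of limma 3.58.1 (R 4.3.3), without covariates. Probes well above background on at least 4 of 8 arrays were kept (30677 of 55681). The brightest probe stood for a gene, which left 23121 features, of which 14631 were named genes. P-values were adjusted by Benjamini-Hochberg over all features, with a threshold of 0.05, and probes other than the brightest take theirs from a fit over all kept probes. Procedures were tested on simulated data. The genes and lists were chosen with earlier results of these data known. Named genes were the 10 members with all probes, Cdkn1a, Rb1, E2f1 and the 12 other pathway genes with the lowest p, the top 3 E2F targets and the 3 genes most like each called member. Tissue markers were named after their values were seen. Slide as a block, each slide alone, other scalings, filters and probe rules, and each array left out were tried as alternatives.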

Additional observations from a re-analysis of the deposited data

Results flagged for a closer look

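Within the saline group Cdkn1b on saline 4 stood apart at 2.43, while the 3 other saline arrays lay between 1.96 and 2.03. Its gap to the nearest of them was above Dixon's 95% critical value for groups of 4. The saline group of Cdkn1b was 1 of 28 groups examined (14 probes in 2 groups), of which chance would give about 1.4. Without saline 4 the difference of Cdkn1b was -0.56 (adjusted p = 0.103).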

How the results depend on the processing

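No paired analysis was possible because the labels number no replicates, and the numbers used here only name the arrays. The planned normexp correction of the mean signal could not be run, since the files hold the median signal, which was used instead. That setting, the detection floor, the row on the slide as a block and leaving out hydroxyurea 2 and 3 together were chosen after seeing the data. Of all features 1429 were called. Without the filter on dim probes, with 37134 features tested, 615 were called. Slide 1 alone gave 59, slide 2 alone 3 and leaving out hydroxyurea 2 and 3 together 3787, and leaving out single arrays gave 524 to 3739, the highest without hydroxyurea 2. The count of called members was 3, but 0 without the filter and 0 on each slide alone, and 1 to 4 with single arrays left out. The count of other pathway genes called higher was 5, but 3 without the filter, 1 on slide 1, 0 on slide 2, 8 without hydroxyurea 2 and 3, and 3 to 10 with single arrays left out. The count called lower was 0, but 3 with quantile normalization and 3 with the percentile over detected probes. The count of E2F targets called higher was 3, but 7 with quantile normalization, 1 with median centring, 0 without the filter or on a single slide, 7 without hydroxyurea 2 and 3, and 0 to 9 with single arrays left out. Ccne1 kept its direction throughout. Its call was lost without the filter (0.91, adjusted p = 0.053) and on slide 1 (0.94) and slide 2 (0.88). Cdk6 lost its call with normexp (-0.55), without the filter (-2.92), on slide 1 (-2.39) and on slide 2 (-3.44), and lay between -3.65 and -2.56 with single arrays left out. It has no value where probes must be well above background on all arrays. Cdkn1b lost its call with median centring (-0.54), without the filter, with all probes tested, with slide or row as a block (-0.66 in each), on slide 1 (-0.61), on slide 2 (-0.71) and without hydroxyurea 2 and 3 (-0.53), and lay between -0.71 and -0.56 with single arrays left out. Ccnd1 lay between 0.28 and 0.44 with single arrays left out. Signs turned for Cdk2 on slide 2 (-0.097), without hydroxyurea 2 and 3 (-0.27) and with single arrays left out (-0.0903 to 0.28, the lowest without hydroxyurea 2), and with median centring for Cdk4 (0.026) and Cdkn1c (0.013). They turned with normexp for the ratios of Ccnd1 to Ccnd2 (0.14), Ccnd2 to Ccnd3 (-0.031) and Ccne1 to Ccne2 (0.52), and the first of these lay between -0.14 and 0.11 with single arrays left out. The cause of these differences between settings was not tested. The median difference of all features was 0.16 with median centring, against 0.04 as reported, a shift of 0.12. Low signal over background limits Ccne2 and Cdk6.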

Other observations

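The 2 rows of arrays on each slide, given by the sample titles, went with some levels among the saline arrays, a pattern chosen after seeing the data. For Ccnd2, Cdk6, the dimmer Ccne1 probe, the dimmer Ccnd3 probe and the dimmest Cdk4 probe, both saline arrays of row 1 lay above both of row 2. The Ccne2 probe, not well above background on any saline array, had the reverse order (-6.40 and -6.78 against -5.95 and -6.16). With 2 arrays against 2 there are only 6 splits, and the share of all probes with either order was not counted. Ccnd2 averaged 5.65 in hydroxyurea and 5.59 in saline in row 1, and 5.51 in hydroxyurea and 4.89 in saline in row 2, differences of 0.059 and 0.63. The dimmer Ccne1 probe differed by 0.44 in row 1 and by 1.33 in row 2. The brighter Ccne1 probe differed by 1.06 in row 1 and by 0.76 in row 2. Each row held 2 arrays a group, and whether these differences themselves differ was not tested.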
